A study of Mus musculus with 93 samples.

Results

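The cytosolic ribosomal protein genes are the nuclear genes for the protein parts of the ribosome, the machine that makes the cell's proteins. They were taken as the rows whose symbol is Rpl or Rps with a number, with Rplp0, Rplp1, Rplp2 and Rpsa added and the Rps6k kinases left out. The rule used only the symbols and no measured value. It found 80 symbols, of which 74 held a value in every cell, among 21285 genes used. The other 6, Rpl19, Rpl30, Rpl34, Rpl35a, Rpl38 and Rpl3l, held no numeric value in the deposited tables and have no level here. Of the 74 genes, 43 code for proteins of the large subunit and 31 for proteins of the small subunit, and they lie on 19 chromosomes, 4 of them on the X chromosome. All levels below are deposited FPKM (fragments per kilobase of transcript, scaled to the size of the library). A gene was called detected in a cell at 1 FPKM or more.

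The cells came from lungs of adult C57BL/6 mice that carry Tbx4cre and the RosaTm reporter. Tbx4 is a transcription factor of the lung mesenchyme, and such a cross marks cells that express the Cre or descend from cells that did. The 54 lineage+ libraries are marked and the 39 lineage- libraries unmarked cells of this cross, each a single cell captured on a Fluidigm C1 chip. The labels describe both as mesenchymal and write the gate as epcam+, CD31- and CD45-. Neither animals nor chips are named. The names of all lineage+ cells share a prefix, and those of all lineage- cells share a different one. Whether these prefixes stand for a chip, an animal, an age or a preparation is not stated. Lineage and chip, animal, age or preparation therefore cannot be told apart, a group counts as 1 sample, and the difference between groups has no test.

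After near-identical profiles were averaged and cells with fewer than 1000 detected genes were left out, 50 lineage+ and 34 lineage- cells remained. A median of 2412.5 genes was detected per lineage+ cell (1071 to 3708) and 1812 per lineage- cell (1027 to 2827). Grouped without the use of any ribosomal protein gene, 40 lineage+ cells were fibroblast-like and 10 mesothelial-like. Of the lineage- cells 18 were epithelial-like, 12 immune-like, 3 fibroblast-like and 1 mesothelial-like, so that the 2 groups differ mainly in their types of cell. The markers of the classes moved with the label. Summed fibroblast markers took a median of 3.15% of the FPKM in lineage+ cells and 0.0150% in lineage- cells, so that most lineage- cells lacked the mesenchymal markers their label would have. The summed epithelial markers took between 0.000133% and 0.672% of the FPKM of a lineage+ cell and between 0.0942% and 82.9% of that of a lineage- cell. The summed immune markers took at most 0.140% in a lineage+ cell and up to 11.1% in a lineage- cell. That list holds Lyz2, the top gene of the epithelial-like lineage- cells 7, 8, 26 and 37, at 8.69% to 10.3% of their FPKM. The immune sum is therefore not particular to immune-like cells. The 9 measured endothelial markers took at most 0.0456% and 0.0203%. Of those 9, Pecam1, Cdh5 and Cldn5 were undetected in every cell, and in no less than 10% of the cells of a group 4 reached 1 FPKM for lineage+ and 0 for lineage-. The low-value floor of a cell was the 10th percentile of its positive values times transcript length. In 6 lineage- cells (numbers 13, 17, 19, 27, 34 and 35) it lay above that of every lineage+ cell. A high floor can come from few reads, but read counts are unknown. Among lineage+ cells the floor was 0.0799 in cell 36, with 3708 detected genes, and 0.0162 in cell 4, with 1071. The 6 lineage- cells are called the shallow cells, a name for their floor and not a measured depth. Of these, 4 are epithelial-like and 2 immune-like, and results that rest on them are given with and without them.

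As background, each ribosome carries 1 copy of nearly every one of these proteins, and cells make them in step. Their mRNAs are among the most abundant in growing cells. Most vertebrate ribosomal protein mRNAs begin with a C followed by an unbroken run of pyrimidines, the terminal oligopyrimidine start, through which mTOR signalling and the binding protein Larp1 control their translation. Measuring the mRNA, as here, does not measure that control.

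The start sequences are shown because this shared start is what ties the genes together in sequence. RefSeq start sites of the mouse build GRCm38.p6 could be matched for 55 of the 74 genes. Each line gives 30 bases, 15 before the annotated start and 15 from the start on, 5′ to 3′ on the strand of the gene. Capitals mark a run of at least 5 pyrimidines, counted from a C at the annotated start. Bases before the start were not counted, and in the 6 lines shown the base just before it is a pyrimidine too. The 6 shown are those with the highest level among the genes with such a run.
Rps27, chr3:90213634-90213663, minus strand: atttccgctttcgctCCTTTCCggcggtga
Rps18, chr17:33955651-33955680, minus strand: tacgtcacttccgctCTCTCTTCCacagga
Rpl35, chr2:39005117-39005146, minus strand: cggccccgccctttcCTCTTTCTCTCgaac
Rplp2, chr7:141447636-141447665, plus strand: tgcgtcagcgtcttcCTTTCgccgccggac
Rpl28, chr7:4792950-4792979, plus strand: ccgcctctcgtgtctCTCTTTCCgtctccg
Rpl14, chr9:120571502-120571531, plus strand: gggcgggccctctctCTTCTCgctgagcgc

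Counted from the annotated start on, such a run was present in 11 of the 55 genes (20%), against 3.01% of all 27025 symbols with a RefSeq start. Counted from a C within 5 bases on either side of the start, one was present in 43.6% of the 55 genes and 21.2% of all symbols. Within 15 bases the shares were 70.9% and 44.9%. A run so counted can be part of a longer stretch of pyrimidines that began before it. Only the strand of the gene was searched, and annotated starts can be off by several bases, so that a missing run says only that these letters are not in this window. The 6 genes with their start shown had neither like levels nor like ratios between the groups. Rps27 and Rplp2 return below among the genes with the lowest ratios and Rpl14 among those with the highest.

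Ribosomal protein transcripts took a similar median share of the FPKM in both groups, with more spread among lineage- cells. Their summed share of a cell's FPKM ran from 5.35% to 18.7% in the 50 lineage+ cells, with a median of 11.5% and quartiles of 9.78% and 13.1%. In the 34 lineage- cells it ran from 0.222% to 27.5%, with a median of 12.8% and quartiles of 8.42% and 17.5%. The difference of the medians, lineage+ minus lineage-, was -1.26 percentage points. The standard deviation over cells was 2.67 points in lineage+ and 6.44 points in lineage- cells. It describes the spread of single cells and not the uncertainty of that difference. The lineage- range enclosed the whole lineage+ range. Above the highest lineage+ cell lay 5 lineage- cells, of which 4 were immune-like, and below the lowest lay 4, all epithelial-like, with 2 shallow cells at each end. Without the 6 shallow cells the lineage- median was again 12.8%.

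In lineage- cell 35, the lowest, the club cell secretoglobin Scgb1a1 took 81.6% of the FPKM, and only 18 of the ribosomal protein genes were detected. That cell and lineage- cell 27, the highest, are both shallow. When the 20 highest other genes of each cell were left out of its total, the median shares were 14.7% in lineage+ and 18.3% in lineage- cells, and the difference became -3.62 points.

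Shares differed by class of cell within the lineage- label. Lineage+ fibroblast-like cells had a median of 11.7% (5.35% to 18.7%, n = 40) and lineage+ mesothelial-like cells of 11.2% (9.43% to 16.6%, n = 10). The 3 lineage- fibroblast-like cells held 8.88%, 10.8% and 24.3% and the 1 mesothelial-like cell 12.0%. Epithelial-like lineage- cells had a median of 9.07% (0.222% to 17.6%, n = 18), and immune-like lineage- cells of 17.8% (11.5% to 27.5%, n = 12). All 12 immune-like cells lay above the epithelial-like median, yet 6 of the 18 epithelial-like cells lay above the lowest immune-like cell, so the classes overlapped. That lowest cell, number 5, had Mgp as its top gene at 8.33% of its FPKM. Mgp is also the top gene of many lineage+ fibroblast-like cells, so the class of cell 5 is uncertain. Without shallow cells the medians were 10.1% and 17.1%. With at least 2000 detected genes, which left 3 epithelial-like and 5 immune-like cells, they were 10.5% and 14.6%. Within the epithelial-like class the 10 cells of the cluster that had Sftpa1 and Lamp3 among its leading genes had a median of 11.4%, and the other 8 cells of 5.69%. The top gene of a cell, whichever it was, held a median of 9.14% of the FPKM in epithelial-like and 5.62% in immune-like cells. Leaving out the 20 highest other genes gave 15.8% and 23.3%. When the highest ribosomal protein gene of each cell was left out, a choice made after seeing the data, the medians were 8.42% and 15.0%, and 11 of the 12 immune-like cells lay above the epithelial-like median. Lineage- cell 27, at 27.5% the highest before, then held 6.34%. The lineage+ and lineage- medians were then 10.6% and 10.9%. The classes were not compared by a test.

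**Figure D1:**
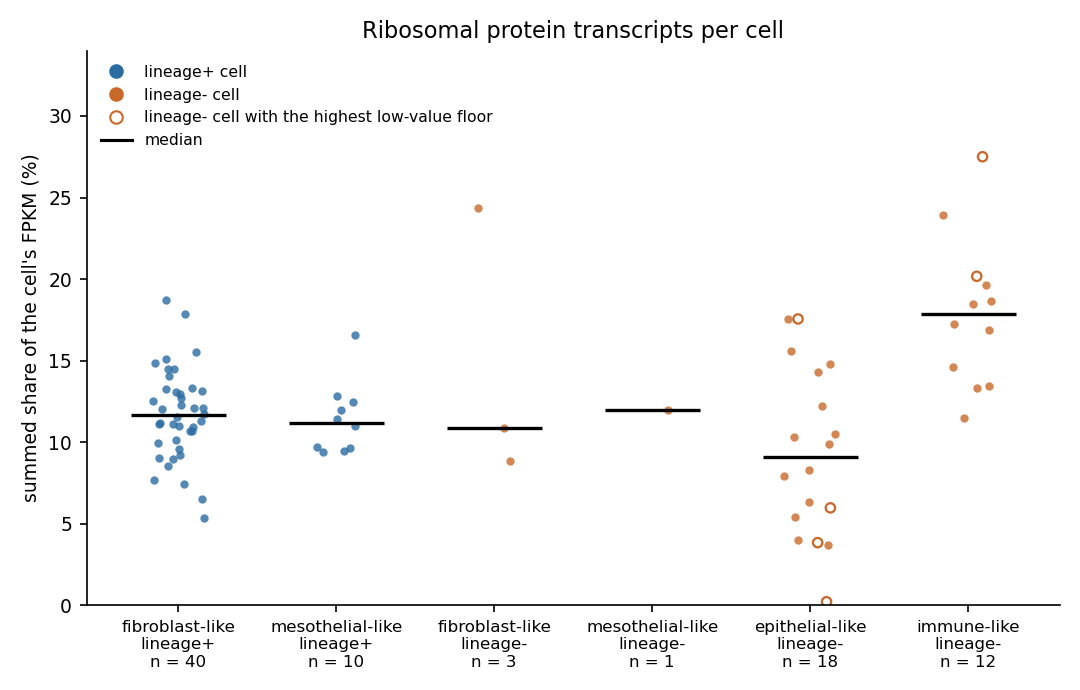
Share of each cell's FPKM (y axis, percent) held by the 74 ribosomal protein genes, for each class of cell and lineage label (x axis); points are cells, open points the 6 shallow lineage- cells, and bars medians. Lineage+ cells sit between 5.35% and 18.7% in both of their classes, while epithelial-like cells reach down to 0.222% and immune-like cells up to 27.5%.

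More of these genes were detected in cells with more detected genes of any kind. A median of 70 of the 74 was detected per lineage+ cell (32 to 72) and 67.5 per lineage- cell (18 to 72). Across cells, that number had a Spearman correlation with all detected genes of 0.82 in the 50 lineage+ and 0.74 in the 34 lineage- cells, and depth is common to both counts. The summed share had almost none (0.03 and 0.17). Of the 74 genes, 71 reached 1 FPKM in no less than 50% of each group's cells. In every lineage+ cell 10 were detected (among them Rpl9, Rpl13, Rpl23a, Rpl37, Rpl37a, Rpl41, Rps19, Rps23 and Rps29), and in every lineage- cell Rps14 and Rps29. Genes of this kind are used by every cell, so a value of 0 in a single cell is reported as listed at 0 and not as absence. Rpl10l and Rpl39l, paralogs known in mouse for expression in the testis, were listed at 0 in all 84 cells.

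Among the 72 other genes the order of levels was much the same in both groups, with a Spearman correlation over the 72 genes of 0.89 for means and for medians. The genes share libraries and length normalisation. The median gene had a mean level of 391.3 and 465.6 FPKM in lineage+ and lineage- cells. Rpl41, which codes for the smallest protein of the large subunit, was the highest by its median, at 2087 FPKM in lineage+ cells (17.4 to 4628) and 2342 in lineage- cells (0 to 6933). Rps29, a small zinc-binding protein of the small subunit, had a median of 1297 FPKM in lineage+ (21.2 to 2905) and 1070 in lineage- cells (2.44 to 13374). The ranges of both genes overlapped between the groups. Rps19, the gene most often mutated in Diamond-Blackfan anaemia in humans, followed with medians of 1031 and 1417 FPKM.

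At the low end stood Rps15a, Rpl22, Rpl26, Rpl27a and Rpl31. Rps15a, of the small subunit, had a median of 17.1 FPKM in lineage+ cells (0 to 118) and 7.77 in lineage- cells (0 to 80.4). Rpl22, an RNA-binding protein of the large subunit whose loss mice survive, had medians of 21.7 FPKM (0 to 343) and 23.3 FPKM (0 to 377). Rpl26, of the large subunit, was detected in 26 of 50 lineage+ cells (0 to 634 FPKM) and 10 of 34 lineage- cells (0 to 295 FPKM). By means these 3 genes lay at or below 47.4 FPKM in both groups, and the next lowest, Rpl27a, at 106.7 and 120.6 FPKM.

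Some of these genes have near-identical copies elsewhere in the genome, which hold rows of their own. At least 1 other annotated gene with 95% identity over 80% of the coding sequence exists for 66 of the 74 genes, with a median of 5 copies and 57 for Rpl21. The copy Gm15772, 99.5% identical to Rpl26, had mean levels of 480.6 and 496.8 FPKM in lineage+ and lineage- cells, beside 36.6 and 23.1 FPKM for Rpl26 itself. Rps15a had 2 such copies in the tables, Rps15a-ps4 with means of 10.1 and 6.79 FPKM and Rps15a-ps6 with 14.2 and 12.7 FPKM, beside 19.3 and 17.8 FPKM for Rps15a. The copy Rpl31-ps12 had means of 60.1 and 68.2 FPKM, beside 149.8 and 161.2 FPKM for Rpl31. For Rpl30 and Rpl34, which held no values, the copies Gm12191 (584.8 and 349.5 FPKM) and Rpl34-ps1 (707.1 and 532.6 FPKM) did. No source used here says how reads were divided between a gene and its copies, so the levels of these genes are uncertain. Over the 72 genes, the median lineage+ level had a Spearman correlation of -0.09 with the number of copies and of -0.17 with coding length.

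Spread between cells was lower at the median than for other widely detected genes, with no matching on level. The median coefficient of variation was 0.844 over lineage+ and 1.34 over lineage- cells, against 1.32 and 1.79 for the 609 other genes that at least 50% of the cells of each group showed. It was higher in lineage- cells for 69 of the 72 genes and for 82.1% of those other genes. Among the steadiest in lineage+ cells were Rps29 (0.439) and Rpl41 (0.523), and the least steady were Rpl26 (3.16), Rpl7a (1.62) and Rps27l (1.6). Each gene's Spearman correlation with the sum of the others had a median of 0.34 in lineage+ and 0.39 in lineage- cells, from -0.11 to 0.78 and from -0.16 to 0.72. Rpl41 was at the top of the lineage+ range and Rpl31 at the bottom of the lineage- range. The genes of the large subunit together had 1.14 times the summed FPKM of those of the small subunit in the median lineage+ cell (0.795 to 2.40) and 1.01 times in the median lineage- cell (0.282 to 3.79).

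Few of the genes differed between the group means. On the log2(mean FPKM + 1) scale, lineage+ over lineage-, 0 of the 72 tested genes were at least 2-fold higher and 4 at least 2-fold lower. Of all 7588 genes seen in no less than 10% of one group's cells or the other's, 29.7% were at least 2-fold higher and 23.4% at least 2-fold lower. With a limit of 50% in place of 10%, which leaves 1427 widely detected genes, the shares were 28.5% and 12.8%. The 4 genes are 5.56% of the 72, below both shares for genes at least 2-fold lower, and 0 is below both for genes at least 2-fold higher; the difference was not tested. The median ratio was -0.25 for the 72 genes, 0.15 for the 7588 and 0.25 for the 1427. Both tables may have been scaled separately, which shifts every ratio alike. The summed FPKM also varied by cell, from 157700 to 471709 in lineage+ and from 161844 to 1.07e+06 in lineage- cells. With each cell scaled to a common total the median ratio was 0.006 for the 72 genes, 0.32 for the 7588 and 0.45 for the 1427.

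The genes with the lower lineage+ mean included Rplp1, Rps27 and Rps15, and for Rps27 and Rps15 the direction turned on medians. Rps27 (chromosome 3, 90212668 to 90213648 in GRCm38), a zinc-finger protein of the small subunit, ran from 0.203 to 2681 FPKM in lineage+ cells (median 674.6) and from 0 to 73856 in lineage- cells (median 595.2). Lineage- cell 17 held 71.3% of the lineage- sum. Its ratio was -1.87 for means and 0.18 for medians. Cells of both groups fell apart for this gene: 11 lineage+ cells lay at or below 1.31 FPKM and none between there and 77.8 FPKM, and 7 lineage- cells lay at or below 0.871 FPKM and none between there and 11.4 FPKM.

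Rps15 (chromosome 10, 80292432 to 80294114), of the small subunit, had medians of 293.1 FPKM in lineage+ (0 to 1005) and 235.1 in lineage- cells (0 to 7786). Its ratio was -1.20 for means and 0.32 for medians. Its highest lineage- cell, number 34, is shallow, as is cell 17 above. Shallow cells were also the highest lineage- cells of 31 of the 72 genes.

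Rplp1 (chromosome 9, 61913284 to 61914510) codes for a protein of the ribosomal stalk, the arm of the large subunit that recruits elongation factors. Its ratio was below 0 in all 12 alternatives run, from -2.00 to -0.70. It ran from 0 to 2185 FPKM in lineage+ cells with a median of 700.0, and from 0 to 35928 in lineage- cells with a median of 1273. The groups overlapped, and the highest lineage- cell held 36.4% of the group's sum. Its ratio was -1.96 for means, -1.41 without the highest cell of each group, -1.23 without the shallow cells and -0.86 for medians. Its stalk partner Rplp2 had medians of 480.0 and 599.7 FPKM and ratios of -0.99 for means, -0.69 without the shallow cells and -0.32 for medians. Rplp0, to which both bind, had medians of 272.8 and 259.5 FPKM and ratios of -0.88, -0.32 and 0.07. Without the shallow cells Rps14, whose human gene lies in the deleted region of the 5q- syndrome, joined Rplp1 as at least 2-fold lower, at -1.00. That made 2 of the 72 lower and 0 higher, beside 23.9% and 28.4% of the 7588 genes. The medians of Rps14 were 661.8 and 1014 FPKM in lineage+ and lineage- cells. Its highest lineage- cell, number 23 at 5046 FPKM, is the well whose label mentions debris, and it was kept. The ratio without both that well and the shallow cells was not taken, so the -1.00 may rest on this well.

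**Figure D2:**
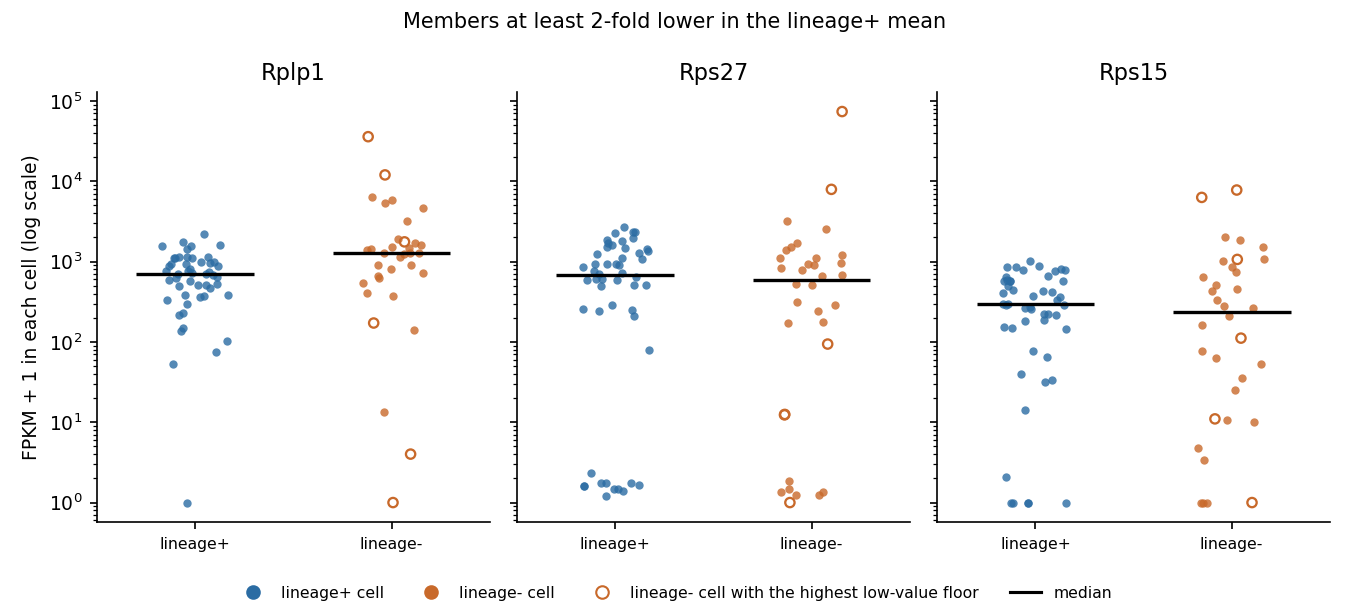
Level of Rplp1, Rps27 and Rps15 in each cell (y axis, FPKM + 1, log scale) by lineage label; bars are medians and open points the 6 shallow lineage- cells. A single shallow cell reaches 73856 FPKM for Rps27, while for Rplp1 the lineage- median (1273) lies above the lineage+ median (700.0).

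At the other end no gene reached 2-fold. The highest ratios were those of Rpl26 (0.64), Rps23 (0.61), Rps10 (0.57), Rpl24 (0.52), Rpl4 (0.46) and Rpl14 (0.41). The highest and second highest lineage+ cells for Rpl26 had 634 and 542 FPKM, beside a lineage+ median of 6.91. Rps23, a protein of the decoding centre, was detected in all 50 lineage+ cells, from 56.7 to 2105 FPKM with a median of 645.5, and in 27 of 34 lineage- cells, from 0 to 1881 FPKM with a median of 414.9. Rps10, of the small subunit, had medians of 248.3 and 111.6 FPKM, and Rpl24, of the large subunit, of 470.0 and 269.5 FPKM. The 2 groups overlapped for each of these genes.

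The choice of mean or median decided the direction for many of them. On the deposited values, not scaled to a common total, the lineage- mean was the higher for 46 of the 72 genes and the lineage- median for 17. By means it was the higher for 3489 of the 7588 genes and 561 of the 1427 widely detected ones. Mean and median ratios differed in sign for 31 of the 72. Neither the count by medians nor that of sign changes was taken over all genes. Taken on medians, 14 genes (19.4%) had a lineage+ level at least 2-fold higher and 0 a lower one, beside 11.1% and 1.42% of the 7588 genes. The list median was then 0.31, that of the 7588 genes 0 and that of the widely detected genes 1.32. Against the widely detected genes the list median differed by -0.50 on means and by -1.01 on medians, and it lay below them under every alternative run, by -0.12 at the least. A gene entered the widely detected set when 50% of the cells of either group showed it. Lineage+ cells had more detected genes (median 2412.5 against 1812), so this filter can favour genes that are high in lineage+ cells. Its effect was not tested, and the gap is not read as a result about the ribosomal protein genes.

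**Figure D3:**
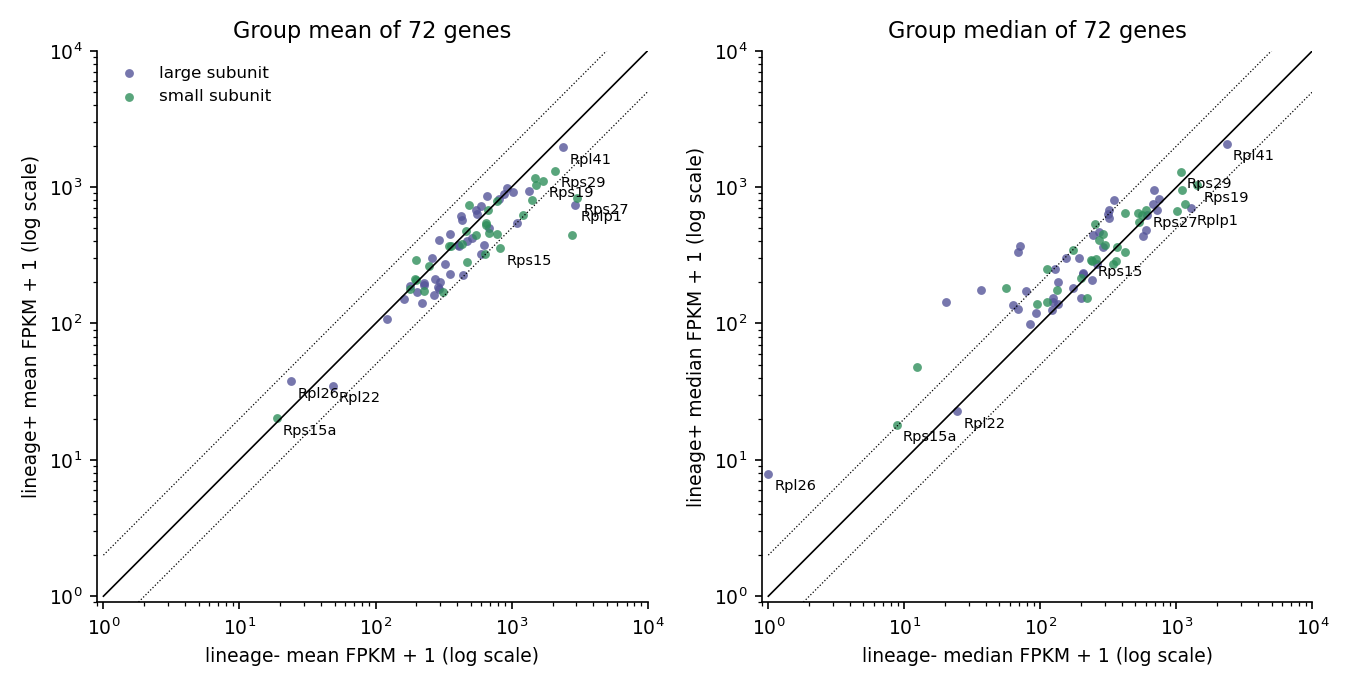
Group mean (left) and group median (right) of each of 72 ribosomal protein genes, lineage+ (y axis) against lineage- (x axis), FPKM + 1 on log scales; the solid line marks equality and dotted lines 2-fold. On means 4 genes, Rplp1, Rps27 and Rps15 among them, lie below the lower dotted line and none above the upper one, and on medians none lies below and 14 above.

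Within the lineage- cells the gap between immune-like and epithelial-like cells was uneven over the genes. Of the 72 genes 19 were at least 2-fold higher and 3 at least 2-fold lower in the immune-like over the epithelial-like mean, beside 31.8% and 37% of 6911 genes. Without the shallow cells, which left 10 and 14 cells, 15 were higher and 1 lower, beside 33.2% and 31.5% of 8490 genes. The list median was 0.59 with the shallow cells and 0.54 without them, against -0.17 and 0.22 for all genes tested. These classes were formed without the genes described, but other genes that formed them are in the background. The genes named next were chosen after their values were seen, for a low epithelial-like or a high immune-like median.

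Rpl39, a very small protein at the exit tunnel of the large subunit, had a median of 13.3 FPKM in the 14 epithelial-like cells that were not shallow (0 to 1046, 10 detected). It had medians of 720.6 FPKM in the 10 such immune-like cells (1.26 to 1898), 313.1 in lineage+ fibroblast-like (0 to 1135) and 453.0 in lineage+ mesothelial-like cells (6.39 to 3067). Rps13, of the small subunit, showed the same order, with a median of 2.00 FPKM in those epithelial-like cells, 7 of which were at 1 FPKM or more, against 480.4, 158.5 and 261.3 FPKM. Epithelial-like cells at the height of the other classes existed for both genes, up to 1046 and 1036 FPKM, so that the classes overlapped. Both genes were listed at 0 in at least 1 cell of the epithelial-like and fibroblast-like classes.

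The stalk genes had their highest class median in immune-like cells. Rplp2 had a median of 1527 FPKM in the 10 immune-like cells (507.3 to 3008) and 258.6 in the 14 epithelial-like cells (0 to 1535), and 428.8 and 775.2 in fibroblast-like and mesothelial-like lineage+ cells. Rplp1 had medians of 1701 FPKM in immune-like (724.6 to 6453), 866.6 in epithelial-like (12.5 to 5291), 728.2 in fibroblast-like and 563.0 in mesothelial-like cells. The log2 ratio of its immune-like over its epithelial-like mean was 1.25 without and 0.15 with the shallow cells, of which an epithelial-like one, at 35928 FPKM, was its highest cell. That of Rplp2 was 1.85 without and 2.70 with them. Rps24, of the small subunit, had 527.6 FPKM in immune-like cells, against 87.0, 172.5 and 131.4 FPKM in the same order. Going the other way, Rpl8, of the large subunit, had means of 202.0 FPKM in immune-like and 415.8 in epithelial-like cells, with medians of 144.4 and 146.5. Without the shallow cells, the epithelial-like median was the lowest of the 4 classes for 44 of the 72 genes, beside 37.8% of the 1427 widely detected genes, and at least 2-fold lower for 22, beside 15.6%. The immune-like median was the highest for 32, beside 18.1%, and at least 2-fold higher for 8, beside 5.82%.

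Between the lineage+ classes 5 of the 72 genes were at least 2-fold higher and 1 lower in mesothelial-like over fibroblast-like means, beside 27.4% and 25.7% of 8814 genes. Rpl26, with means of 136.0 and 11.7 FPKM, had the highest of these ratios (3.43), and Rpl22, with means of 16.4 and 38.3 FPKM, the lowest (-1.18). The medians were 26.9 and 0.0302 FPKM for Rpl26 and 14.6 and 23.0 FPKM for Rpl22. For Rpl26 the highest and second highest lineage+ cells, at 634 and 542 FPKM, lay above every fibroblast-like cell (at most 52.3). Its mesothelial-like mean therefore rests largely on these cells.

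**Figure D4:**
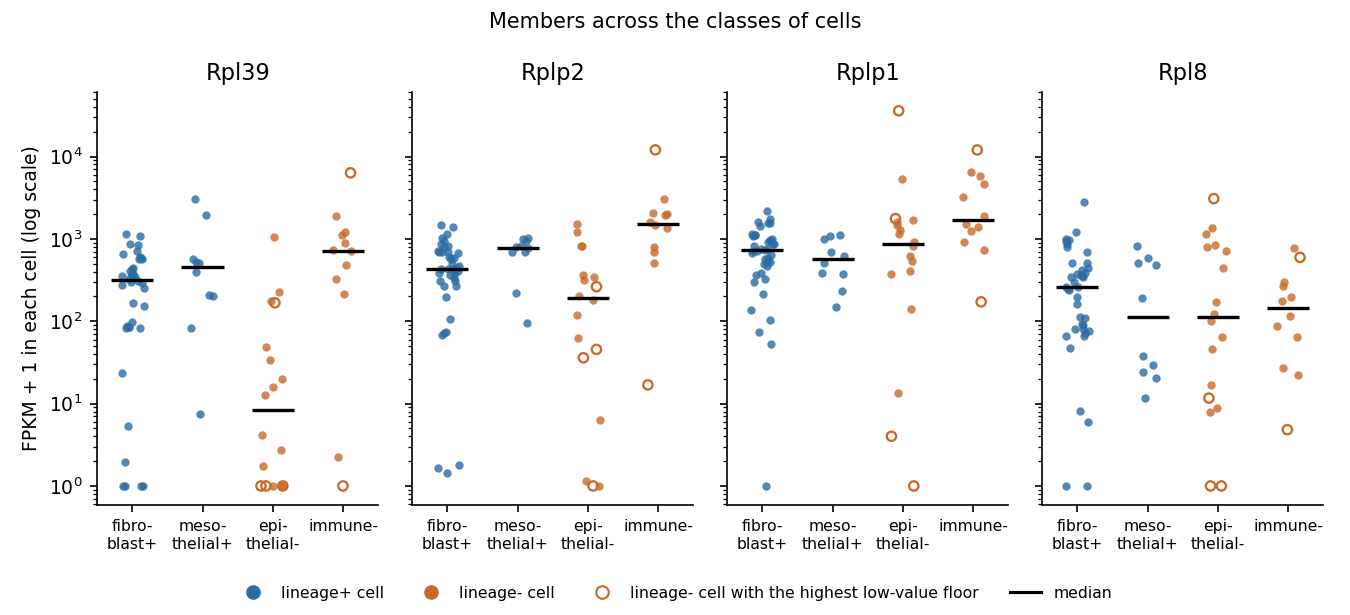
Level of Rpl39, Rplp2, Rplp1 and Rpl8 in each cell (y axis, FPKM + 1, log scale) by class, with + for lineage+ and - for lineage- cells; bars are medians and open points shallow cells. For Rpl39 the epithelial-like median lies below the other class medians, with overlapping cells, and for Rplp2 and Rplp1 the immune-like median is the highest.

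Ribosomal protein genes with other names spanned both directions. Rps3a1 had means of 691.3 and 467.2 FPKM in lineage+ and lineage- cells. Gnb2l1, the scaffold protein Rack1 of the small subunit, had 220.8 and 542.9 FPKM, a ratio of -1.29 that was -0.47 without the shallow cells. Fau held no values. Adding the 3 with values moved the median share to 11.9% in lineage+ and 13.2% in lineage- cells.

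Of the 5 paralogs and ribosomal-protein-like genes tested, 2 had a lineage+ mean at least 2-fold higher and 0 a lower one, and without the shallow cells 1 was higher (Rps4y2) and 1 lower (Rpl36al, -1.04). Rpl22l1, the paralog of Rpl22, had means of 246.2 FPKM in lineage+ cells (0 to 1141, 41 of 50 detected) and 102.7 in lineage- cells (0 to 644, 19 of 34 detected), and so stood above Rpl22 itself in both groups. Its ratio was 1.25, and 0.98 without the shallow cells. Rps4y2, detected in 7 lineage+ and 1 lineage- cells, had means of 11.3 and 2.52 FPKM. Rps27l, a paralog of Rps27 that p53 induces, had medians of 47.2 and 11.5 FPKM and a ratio of -0.39 for means. Rpl36al had means of 84.8 and 147.7 FPKM and Rpl7l1 of 7.83 and 7.28 FPKM.

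Of the genes known to share the oligopyrimidine start few passed the same fold. Of 15 tested elongation factors and other such genes 0 were at least 2-fold higher and 1 lower, with a median ratio of -0.09. Eef1a1, the factor that brings aminoacyl-tRNA to the ribosome, had medians of 1123 FPKM in lineage+ (23.3 to 4189) and 677.0 in lineage- cells (5.47 to 9885). Eef2, the translocation factor, was the lower gene, with medians of 63.3 FPKM (7.82 to 529) and 95.6 FPKM (0 to 1943), and its ratio of -1.28 was -0.55 without the shallow cells. Tpt1 had means of 550.1 and 854.7 FPKM, and the ribosome assembly chaperone Npm1 of 250.2 and 291.4 FPKM.

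The other lists around the ribosome held less widely detected genes, and their counts stand beside the same 29.7% and 23.4% of all genes. Of 70 mitochondrial ribosomal protein genes, which code for the separate ribosome of that organelle, 10 were at least 2-fold higher and 16 lower, with a median ratio of 0.06. Among 49 genes whose symbol is Eif and a number 11 were higher and 6 lower (median 0.19), and 10 and 9 without the shallow cells. That list holds the initiation factors but also Argonaute genes (Eif2c2 and Eif2c3, both higher), kinases (Eif2ak1, lower) and the repressor Eif4ebp1 (higher). Among 17 ribosome assembly genes 4 were higher and 6 lower (median -0.50). Of 5 S6 kinase genes 1 was higher, Rps6kb1, and 3 lower. Of 7 growth regulators 4 were higher (Myc, Eif4ebp1, Rptor and Tsc1) and Larp1 was lower, and without the shallow cells Rptor was no longer among them. Most were seen in few cells: Myc in 9 of 50 lineage+ and 4 of 34 lineage- cells, Eif4ebp1, the translational repressor that mTOR inactivates, in 21 and 3, and Larp1 in 4 and 9.

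**Figure D5:**
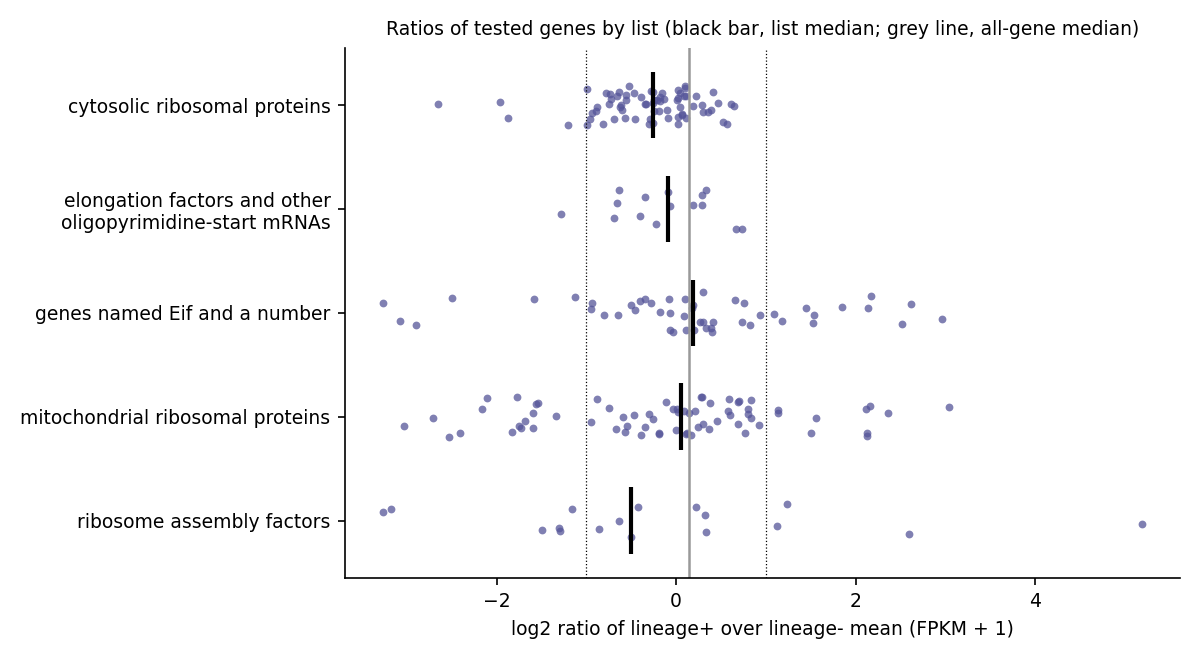
Log2 ratio of lineage+ over lineage- means (x axis) of each tested gene of 5 lists (rows); black bars are list medians, the grey line the median of all 7588 genes (0.15) and dotted lines 2-fold. Of the 72 cytosolic ribosomal protein genes none lies above 0.64 and 4 lie below the lower dotted line; the Eif-named genes lie between -3.26 and 2.96 and the mitochondrial ribosomal proteins between -3.03 and 3.04.

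Of the same 609 other genes, those that followed the summed ribosomal protein level best across cells included, in order, Rn45s, C330021F23Rik, Gm6548, Gm5148, Ptma, Rplp2-ps1, H3f3a, Gm2a and Tmsb4x. Likeness was the mean of the Spearman correlations within the 50 lineage+ and within the 34 lineage- cells, and its median over the 609 genes was 0.06. Rn45s, the row for the ribosomal RNA precursor, had 0.60 and 0.50. Once each cell was scaled to a common total these were -0.08 and 0.37. The scaled lineage+ correlation was 0.02 for Ptma, 0.05 for Gm2a, -0.10 for Tmsb4x, 0.13 for Rplp2-ps1 and 0.18 for H3f3a. It was 0.43 for C330021F23Rik and Gm5148 and 0.31 for Gm6548. In lineage- cells the scaled correlations of these genes ran from 0.32 to 0.64. Gm6548 is 96.7% identical to the coding sequence of Eef1a1, and before scaling it had 0.44 and 0.59.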

How the data were processed

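Single-cell RNA-seq of 93 mouse lung cells was analysed, 54 labelled Tbx4 lineage+ and 39 lineage-. C1 capture, removal by eye of wells with doublets or debris, SMARTer cDNA, added spike-ins, Nextera XT libraries and 75-base single-end reads are the steps per the labels' protocols. Lineage- cell 23, a well whose label mentions debris, was kept in the main results. Bowtie 1.1.1, RSEM 1.2.20, GRCm38 and mm9 are named, with no role, in the submitters' processing notes. The deposited values of each group's table were taken as FPKM. That unit was inferred from the values, since neither headers nor labels name it, and read counts per cell are unknown, so no counting interval is given. The low-value floor was the 10th percentile of positive FPKM times transcript length over single-transcript genes longer than 300 bases. It was not checked against read counts. Gene starts of 49 of the 74 genes equal RefSeq GRCm38.p6 starts after adding 1, so coordinates are given in GRCm38, counted from 1.

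Of 23846 gene rows, 1830 held no numeric values and 731 rows of 249 repeated symbols were left out, which leaves 21285 genes. Of 4278 pairs of cells, 2 lineage+ pairs had a Pearson correlation of 0.996 and 0.997 (the next highest was 0.596) and were averaged, each counted as 1. No doublet caller was run. Cells with at least 1000 genes at 1 FPKM were kept. Cells were clustered with scanpy 1.11.5 without any Rpl or Rps gene (2000 variable genes, 15 components, 10 neighbours, Leiden at resolution 1), and named "-like" from at least 3 detected markers of lists chosen by hand. Of the 8 clusters only the mesothelial-like one and 1 of the epithelial-like ones had such markers among their 10 leading genes by fold. The 3 fibroblast-like, the other epithelial-like and both immune-like clusters had none there. Ratios are log2 of group mean FPKM plus 1, for genes that reached 1 FPKM in no less than 10% of one group's cells or the other's. With 1 sample a group, no p-value or standard error is given. The calculations of the ratio and the share were checked on simulated data. The ratio check set cells against noisy copies of themselves, and the share check read back a share that it had set. Neither shows how these measures behave between groups of different cells. Start sites came from RefSeq, and copies from GENCODE M21.

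Named genes are the 5 highest and 5 lowest by level, the 6 highest and 6 lowest ratios, the 3 highest and 3 lowest in spread, undetected members, paralogs, and the 10 best correlated genes. A few genes that this rule takes are not reported here by name, and their values stay in the sums and counts. The genes and lists were chosen with earlier results of these data known. Other detection limits, added constants, totals, summaries and left-out cells were tried as alternatives.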

Additional observations from a re-analysis of the deposited data

How the results depend on the processing

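No paired analysis was possible because the result comes from no test and the numbers of the cells name captures, not pairs. Leaving out each cell's 20 highest other genes moved the median share to 14.7% in lineage+ cells and to 14.6%, 15.8% and 23.3% in mesothelial-like, epithelial-like and immune-like cells of both groups. Genes at least 2-fold lower in lineage+ numbered 4 as reported, 2 in cells with at least 2000 genes (Rpl10a and Rps24), 1 without the highest cell of each group, 2 with each cell scaled to a common total, 7 with that total less the 20 highest other genes, 0 with means of log2 values or medians, and 2 without the shallow cells, an alternative chosen after seeing the data. Without lineage- cell 23, the well whose label mentions debris, they numbered 6. Of all tested genes, 23.4% were at least 2-fold lower as reported and 24.1% in cells with at least 2000 genes. The share was 16.5% without the highest cells, 23.0% scaled to a common total and 26.4% with that total less the 20 highest. It was 3.89% with means of log2 values, 1.42% with medians, 23.9% without the shallow cells and 23.2% without cell 23. Genes at least 2-fold higher numbered 0 as reported, 32 with means of log2 values and 14 with medians. Of all 7588 genes 29.7%, 14.3% and 11.1% were at least 2-fold higher in these settings. With means of log2 values and with medians the ribosomal protein genes therefore passed more often than all genes. This was not tested. Means of log2 values gave a list median of 0.84, against 0.95 for the 1427 widely detected genes. Rps15 turned to 0.41 with means of log2 values and 0.32 with medians, and Rps27 to 0.20, 0.18 and, without the shallow cells, 0.11. The cause was not tested. Of 228 values of 19 named genes, 187 kept their direction and size class, 36 moved and 5 reversed. The difference in median share kept its sign in every alternative run, from -3.62 to -0.26 points, the last without each cell's highest ribosomal protein gene, also chosen after seeing the data. Single profiles, 1 sample a group and unknown read counts limit every comparison.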
